A study of Mus musculus with 6 samples.

Results

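Arterial endothelial cells line the vessels that carry blood into the tissue. Here they were 273 of 1666 endothelial cells, of 6323 usable cells and 7433 deposited cell barcodes in 6 single-cell RNA libraries from adult mouse brain. They were chosen by counts of RNA molecules (unique molecular identifiers, UMIs) among cells in which 300 or more genes were detected and mitochondrial UMIs made up no more than 20%. An endothelial cell held at least 5 UMIs of Cldn5, Flt1, Pecam1 and Cdh5 together, and more than of Vtn, Rgs5 and Slc1a3, which mark pericytes and astroglia. An arterial cell also held at least 2 UMIs of the 6 arterial markers Bmx, Gkn3, Sema3g, Hey1, Vegfc and Mgp, and at least as many as of Vwf, Vcam1, Slc38a5, Il1r1, Icam1 and Lcn2, which mark venous or activated endothelium. Because measured values chose the cells, these 19 genes are given below as a description. Tests between arterial and other endothelial cells left them out. Comparisons of groups within arterial cells did not leave them out of the genes counted.

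The libraries came from mice aged 8 to 12 weeks and fall into 3 groups of 2. Control mice had the genotype Cx43flox/flox, that is, Gja1, which encodes the gap junction protein connexin 43, flanked by loxP sites. The genotype of the second group was Cx43GlastiKO, named for Glast, the astroglial glutamate transporter encoded by Slc1a3. That of the third was Cx43ECiKO, named for endothelial cells, and its titles say Vecad, a name of the endothelial cadherin encoded by Cdh5. The Cre driver line, how deletion was induced, the number of animals per library and their sex are not given in the sources used here. Per the labels, the tissue was cortex with the subventricular zone, digested at 37 degrees for 30 minutes. Flow cytometry then took CD31+Glast-CD45- endothelial cells and CD31-Glast+CD45- neural stem and progenitor cells. The study's title concerns connexin 43 between vessels and neural stem cells, so arterial cells were compared with other endothelial cells and each deletion group with the control.

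Endothelial cells change along a vessel tree from artery through capillary to vein. Arterial identity is known to depend on Notch signalling between neighbouring endothelial cells, with Dll4 and the jagged proteins as ligands, Hey1 as a target, and SOXF transcription factors upstream. Brain arteries and arterioles are wrapped in smooth muscle and carry elastic fibres, and capillaries bear most transporters of the blood-brain barrier. Arterial endothelial cells are coupled to one another by gap junctions of connexins 37, 40 and 43, encoded by Gja4, Gja5 and Gja1.

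The libraries numbered 1 held most of the arterial cells, with 120 in control, 71 in GlastiKO and 61 in the library labelled ECiKO replicate 1. Those numbered 2 consisted mainly of glia and held 7, 12 and 2. The UMIs summed over arterial cells ranged from 9766 to 522150 per library, and the median arterial cell had between 3490 and 4883 UMIs, against 1008 to 3328 in the other endothelial cells. Scrublet called 7 of the 273 as doublets. No arterial barcode sequence occurred in another library. Tests used the 4 libraries with at least 10 arterial cells. Levels are counts per 1000000 UMIs (CPM) of the cells of a class in a library, added up, and values of 4 libraries follow the order control replicate 1, GlastiKO replicate 1, GlastiKO replicate 2 and the library labelled ECiKO replicate 1. In a library, fewer arterial cells with a transcript and less of it in each cannot be told apart from such sums.

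All 6 arterial markers stood far above the other endothelial cells, as the rule requires. Bmx, a tyrosine kinase of arterial endothelium, was at 146, 243, 47.6 and 169 CPM in arterial cells of the 4 libraries. Gkn3, a secreted gastrokine known from brain arterioles, was at 462, 282, 206 and 356 CPM, and the secreted semaphorin Sema3g at 467, 532, 190.4 and 439 CPM. Hey1, the Notch target, was at 159, 289, 238 and 300.2 CPM. Vegfc, a growth factor of lymphatic vessels, was at 124, 198, 111 and 116 CPM, and matrix Gla protein, Mgp, at 575, 726, 31.7 and 878 CPM. In the other endothelial cells of control replicate 1 the same genes were at 2.87 (Bmx), 3.35 (Gkn3), 23.9 (Sema3g), 12.9 (Hey1), 3.82 (Vegfc) and 1.43 CPM (Mgp). GlastiKO replicate 2, with 12 arterial cells, had the lowest Bmx, Sema3g and Mgp of the 4 libraries.

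The general endothelial genes of the rule differed less between the classes than the arterial markers did. In control replicate 1, Cldn5, which encodes a tight junction protein, was at 4558 CPM in arterial and 5020 CPM in other endothelial cells. Flt1, which encodes a VEGF receptor, was at 6464 and 6350 CPM, Pecam1 at 900 and 758 CPM, and Cdh5 at 693 and 637 CPM. In the library labelled ECiKO replicate 1, Cdh5 was at 848 CPM in arterial and 598 CPM in other endothelial cells, and Cldn5 at 3981 and 4959 CPM. Among the venous or activated markers, Slc38a5, an amino acid transporter, was at 30.6 CPM in arterial and 309 CPM in other endothelial cells, and Il1r1, the interleukin 1 receptor, at 3.83 and 57.3 CPM. Vwf, von Willebrand factor, was at 184 and 177 CPM, so it did not separate the classes although it is among the genes set against the arterial markers.

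Membership rested on few molecules in many cells. Of the 273 cells, 81 held 1 of the 6 markers, 100 held 2, 37 held 3, 30 held 4, 17 held 5 and 8 held all 6. Sema3g was detected in 205 cells and Hey1 in 148, whereas Bmx was detected in 92, Gkn3 in 73, Vegfc in 71 and Mgp in 56. Of the 81 cells with a single marker, 41 had Sema3g and 31 had Hey1. The marker sum was 2 UMIs, the minimum, in 88 cells, and 10 or more in 52. Just outside the threshold, 206 endothelial cells held 1 marker UMI, and 17 held 2 or more but had more venous or activated marker UMIs. Mgp and Gkn3 were the most concentrated: the 10 cells with the most UMIs of each held 69.1% of all Mgp and 56.4% of all Gkn3 UMIs, against 19.6% for Sema3g and 17.8% for Hey1.

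As a check of the label, arterial cells were chosen again 6 times, each time with 1 marker left out of the rule, and that marker was read in the cells so chosen. Gkn3 was then 96.2-fold higher in the chosen than in the other endothelial cells of control replicate 1, 69.0-fold in GlastiKO replicate 1 and 176-fold in the library labelled ECiKO replicate 1. The ratios were 9.97, 17.9 and 7.57 for Bmx, and 17.3, 124 and 13.7 for Vegfc. They were 5.64, 10.95 and 7.74 for Sema3g, and 3.33, 3.70 and 2.67 for Hey1. Mgp was 152-fold, 15.02-fold and 865-fold higher. Each left-out marker was thus enriched in the cells that the other 5 chose, in all 3 libraries numbered 1, though many of those cells lacked it: Hey1 was detected in 33.7% of the chosen cells of control replicate 1. In the small libraries the ratios ranged widely, from 1.14 for Mgp to 8.67 for Bmx in control replicate 2, and from 1.85 for Sema3g to 16.25 for Gkn3 in GlastiKO replicate 2. The check failed in the library labelled ECiKO replicate 2, whose 2 arterial cells held 6 UMIs of Hey1 and 0 of the other 5 markers. Without Hey1 in the rule no cell was chosen there. With any other marker left out, that marker had 0 UMIs in the chosen cells.

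Genes of other cell types were scarce in the arterial cells, with named exceptions. The smooth muscle list of 10 genes summed to 59.4, 55.1, 31.7 and 37.5 CPM in arterial cells, against 10.0, 17.6, 25.4 and 14.2 CPM in other endothelial cells. Almost all of it was Mylk, with 57 of the arterial UMIs, while the defining genes Acta2 (1 UMI), Tagln (1 UMI) and Myh11 (0 UMIs) were nearly absent, and 8 to 10 of the 10 genes were at 0 in every library. All 8 microglial and leukocyte genes were at 0 in arterial cells of all libraries, and pericyte and fibroblast lists stayed at or below 15.9 CPM. The astroglial list of 9 genes, which includes Clu, was at 651 CPM in GlastiKO replicate 2 and between 0 and 75.8 CPM in the other libraries. Red blood cell genes were at 26343 CPM in control replicate 1 and 95435 CPM in GlastiKO replicate 2, against at most 114 CPM elsewhere. Of those UMIs, 13674 lay in 1 arterial cell of control replicate 1 and 6013 in 2 arterial cells of GlastiKO replicate 2. Results these cells touch are given with and without them.

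The arterial share of endothelial cells differed between libraries by less than its counting error. It was 16.6% in control replicate 1 (95% Clopper-Pearson interval 13.996 to 19.6%), 16.2% in GlastiKO replicate 1 (12.9 to 20.0%) and 16.0% in the library labelled ECiKO replicate 1 (12.5 to 20.1%). It was 16.3% in control replicate 2 (6.81 to 30.7%), 19.4% in GlastiKO replicate 2 (10.4 to 31.4%) and 9.52% in the library labelled ECiKO replicate 2 (1.17 to 30.4%). All 6 intervals overlapped, and they cover counting error only. Because deeper cells reach 2 marker UMIs more easily, every cell was also thinned to 2000 UMIs before the rule, which left 6 to 550 endothelial cells per library. The share was then 11.5%, 13.9% and 12.7% in the libraries numbered 1 of the control, GlastiKO and ECiKO groups, and 11.5%, 6.52% and 16.7% in those numbered 2. A sort precedes these shares, so they are shares of the sorted endothelial cells and not of the tissue.

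**Figure D1:**
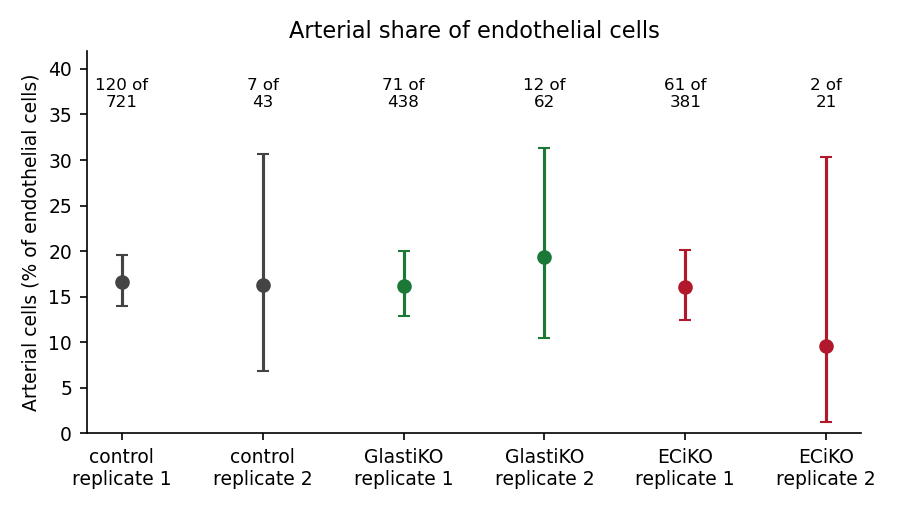
Arterial cells as a percentage of endothelial cells (vertical axis) in each of the 6 libraries (horizontal axis), with the numbers of cells above. Points are shares and bars are 95% Clopper-Pearson intervals, which overlap in all libraries. The shares of the libraries numbered 1 lie between 16.0 and 16.6%.

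How the cells vary among themselves was read from their marker UMIs. All endothelial cells were put in order by the sum of the 6 markers (0, 1, 2, 3 to 4, 5 to 9, and 10 or more UMIs), leaving out the 17 with more venous UMIs. The split at 10 was chosen after the data were seen. The levels below are pooled over libraries and carry no test. The median cell had 2970.5 UMIs in the lowest of these classes and 5343.5 in the highest, and the part of depth in the levels was not tested.

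Several genes were highest by far in cells with 10 or more marker UMIs, and Fbln5 and Cytl1 had no UMI in cells with fewer than 5. Fbln5, which encodes the elastic fibre protein fibulin 5, was at 0, 0, 0, 0, 15.2 and 249 CPM along that order, and 71 of its UMIs lay in the highest class. Eln, which encodes elastin itself, was at 12.6, 9.14, 15.02, 2.63, 25.3 and 382 CPM. In the highest class alone, Fbln5 was at 434 CPM in control replicate 1, 89.3 in GlastiKO replicate 1 and 258 in the library labelled ECiKO replicate 1, and Eln at 483, 303 and 64.4 CPM. Eln also had 47 UMIs in cells with no marker UMI, against 109 in the highest class. Clu, a secreted chaperone, was at 6.43, 1.31, 0, 10.5, 20.3 and 168 CPM, and Cytl1, a small secreted protein, at 0, 0, 0, 0, 5.07 and 66.7 CPM. The connexin gene Gja4 was at 3.22, 6.53, 24.0, 13.1, 10.1 and 112 CPM, and Gja5 at 0, 1.31, 0, 0, 5.07 and 42.1 CPM. Stmn2, a microtubule regulator best known from neurons, rose earlier, at 6.43, 10.4, 24.0, 52.5, 106 and 347 CPM.

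Alpl, Tm4sf1 and Unc5b were higher in each class than in the one before, beginning at 1 marker UMI, outside the threshold. Alpl, tissue-nonspecific alkaline phosphatase, was at 61.1, 149, 186, 255, 289 and 533 CPM. Tm4sf1, a tetraspanin-like membrane protein of endothelium, was at 368, 646, 706, 953, 1297 and 1779 CPM, and the netrin receptor Unc5b at 68.1, 172, 234, 236, 309 and 351 CPM. The Notch ligand Jag2 was at 216, 219, 345, 318, 527 and 632 CPM, while the ligand Dll4 hardly moved, at 133, 168, 183, 184, 162 and 186 CPM. Within libraries, Alpl was at 68.5 CPM in the lowest and 739 in the highest class of control replicate 1, at 61.9 and 499.9 in GlastiKO replicate 1 and at 55.9 and 289.7 in the library labelled ECiKO replicate 1. Between these it did not climb at each step: from 2 to 3 or 4 marker UMIs it went from 318 to 226 CPM in GlastiKO replicate 1, and from 1 to 2 it went from 143 to 78.3 CPM in the library labelled ECiKO replicate 1. Nor did Tm4sf1 climb at each step within libraries. From 1 to 2 marker UMIs it went from 791 to 706 CPM in control replicate 1 and from 674 to 636 in the library labelled ECiKO replicate 1. In GlastiKO replicate 1 it went from 1593 CPM at 5 to 9 to 1098 at 10 or more.

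Car4, Tfrc, Slc16a1 and Nr2f2 were lowest in the highest class. Car4, carbonic anhydrase 4 of the luminal membrane, was at 878, 519.7, 423, 171, 76.0 and 3.51 CPM, so that the cells richest in arterial markers had almost none. Tfrc, the transferrin receptor, was at 1180.5, 782, 549.6, 557, 268 and 102 CPM, and Slc16a1, the monocarboxylate transporter MCT1, at 909.6, 697, 547, 365, 218 and 129.8 CPM. Nr2f2, the transcription factor COUP-TFII of veins, was at 82.0, 19.6, 27.0, 5.25, 5.07 and 3.51 CPM. Mfsd2a, the lipid transporter of barrier capillaries, did not follow these, at 401, 484, 459.5, 617, 522 and 295 CPM. The 88 members with 2 marker UMIs thus resembled the 206 cells just outside the threshold in several genes: Alpl was at 186 and 149 CPM, Tm4sf1 at 706 and 646, and Tfrc at 550 and 782.

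**Figure D2:**
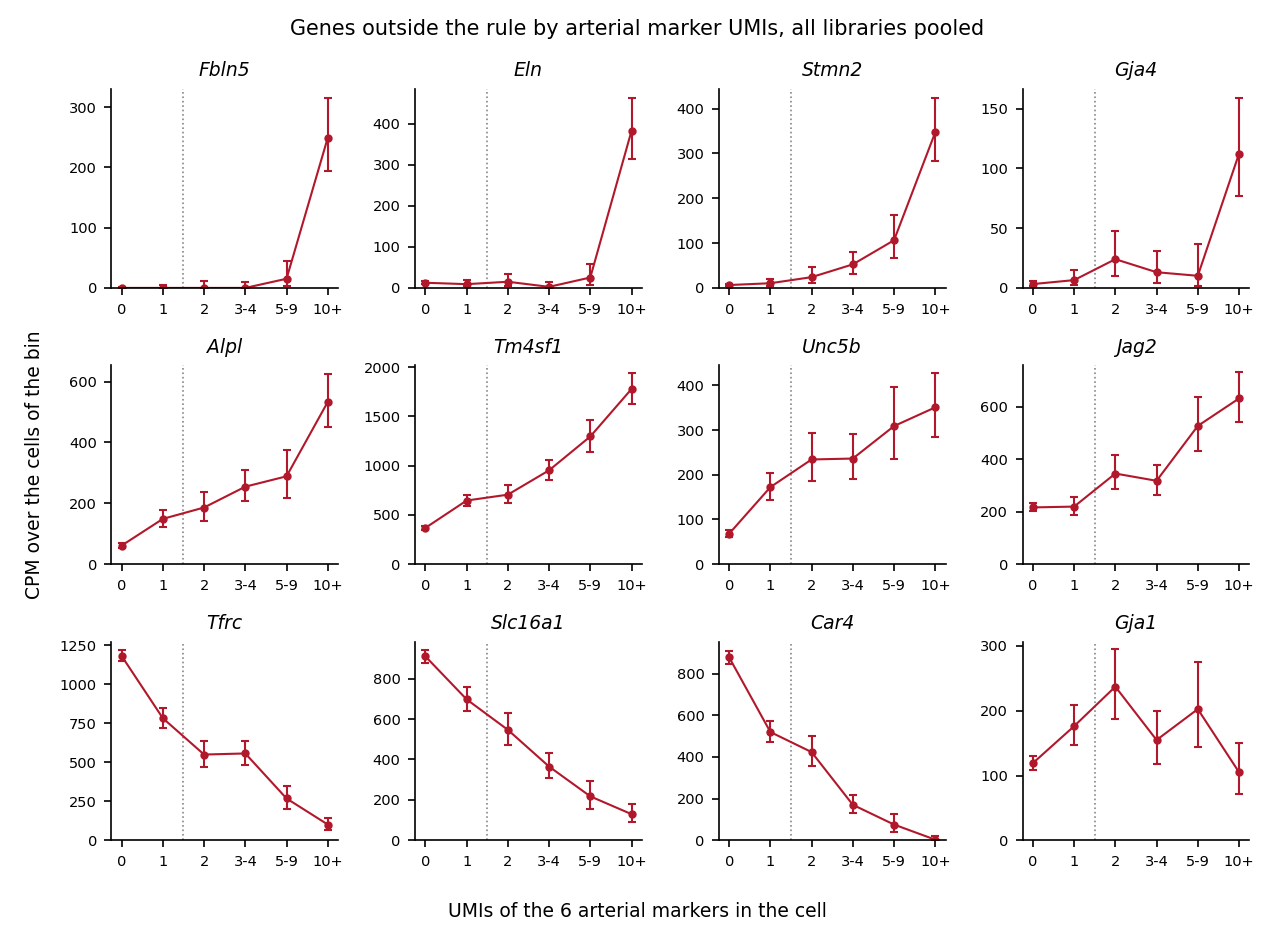
Levels of 12 genes outside the rule (vertical axes, CPM over the cells of a class) against the UMIs of the 6 arterial markers per cell (horizontal axes), pooled over libraries; bars are 95% Poisson intervals and the dotted line is the minimum of 2 UMIs. Fbln5 and Eln are highest at 10 or more UMIs (249 and 382 CPM), Alpl and Tm4sf1 climb throughout in the pooled cells, and Car4 falls from 878 to 3.51 CPM.

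Arterial cells were then compared with the other 1393 endothelial cells on genes outside the rule, which asks what else distinguishes the cells the markers picked. UMIs were summed per library and class and tested with edgeR's quasi-likelihood F test, the library as a block and Benjamini-Hochberg adjustment over 6220 genes. The filter on low counts could be met by the sums of 1 class alone. A gene scarce in the other class was then tested because it was high in 1, so its call is a description. At an adjusted p under 0.05, 171 genes were higher (2.75% of those tested) and 140 lower (2.25%), 311 in all (5.0%); 129 and 124 of them moved the same way in all 4 libraries, and 72 and 55 by at least 2-fold. The median log2 fold change over all genes was 0.0016. Without the arterial and other endothelial cells that held a smooth muscle marker UMI the count was 212, and without control replicate 1 it was 152. The labels call the libraries biological replicates and do not name the animals behind them. The block takes out what both classes of a library share, so these p-values measure how the class difference varied over these 4 libraries. That fit had 3 residual degrees of freedom, and edgeR also drew on the spread of other genes.

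**Figure D3:**
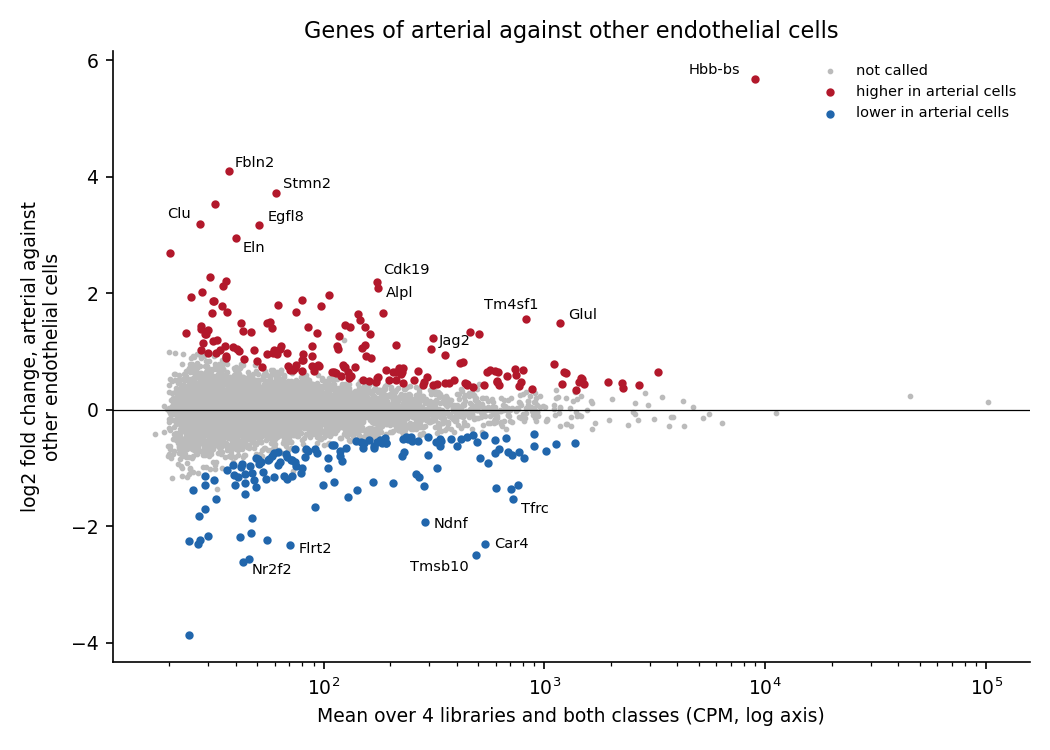
Log2 fold change of arterial against other endothelial cells (vertical axis) against the mean level over the 4 libraries and both classes (horizontal axis, CPM, log scale), 1 point per gene tested. Red points are the 171 higher and blue the 140 lower genes at an edgeR adjusted p under 0.05. Hbb-bs, at 5.69, rests on 3 cells rich in red blood cell RNA.

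The genes below are named for the size of their rise among called genes that were higher in all 4 libraries, so that agreement was required. Egfl8, a secreted protein with EGF-like domains (chromosome 17, 34613349 to 34615971 in mm10, beside Notch4), was at 84.3, 129.7, 47.6 and 86.3 CPM in arterial cells and 11.9, 7.98, 31.7 and 8.12 CPM in other endothelial cells. It was higher in each of the 4 libraries (log2 fold change 3.17 ± 0.30, SE; edgeR adjusted p = 4.97e-10). Alpl was at 350.5, 363, 286 and 169 CPM against 84.6, 71.0, 12.7 and 74.1 CPM (log2 fold change 2.09 ± 0.18, SE; edgeR adjusted p = 5.99e-11), and the arterial values lay above all others. Tm4sf1 was at 1049.5, 1069.9, 1492 and 1283 CPM against 446, 338, 463 and 447 CPM (log2 fold change 1.56 ± 0.11, SE; edgeR adjusted p = 3.04e-13). Unc5b was at 243, 269, 206 and 360.2 CPM against 84.1, 75.8, 139.7 and 105 CPM (log2 fold change 1.66 ± 0.15, SE; edgeR adjusted p = 1.53e-10). For Alpl, Tm4sf1 and Unc5b the lowest arterial library stood above the highest library of other endothelial cells. The tetraspanin gene Cd9 rose by 1.68 ± 0.20 (edgeR adjusted p = 1.07e-07), the sialyltransferase gene St8sia6 by 1.65 ± 0.17 (2.22e-09) and Crispld1, a secreted cysteine-rich protein gene, by 1.52 ± 0.22 (6.18e-06).

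Cdk19, a kinase of the Mediator complex, was at 329, 272, 365 and 150.1 CPM in arterial and 50.2, 61.4, 95.2 and 64.9 CPM in other endothelial cells (log2 fold change 2.19 ± 0.18, SE; edgeR adjusted p = 2.39e-11), with no overlap between the classes. Amd1, a key enzyme of polyamine synthesis whose gene lies next to Cdk19 on chromosome 10 (40287458 to 40302186, Cdk19 at 40339564 to 40483818), rose by 1.88 ± 0.23 (edgeR adjusted p = 2.54e-07). Atp13a3, a transport ATPase also tied to polyamines, rose by 1.96 ± 0.18 (1.53e-10), Rad54b, a helicase of DNA repair, by 1.78 ± 0.18 (4.39e-09) and Itprid2 by 1.54 ± 0.15 (1.87e-09). Glul, glutamine synthetase, was at 1915, 1517, 1825 and 1531 CPM against 600.2, 554, 768 and 651 CPM (log2 fold change 1.49 ± 0.10, SE; edgeR adjusted p = 3.04e-13). Glul is high in astrocytes, whose list of markers was at 46.0, 61.6, 651 and 67.5 CPM in arterial cells and 53.0, 40.7, 76.2 and 30.4 CPM in other endothelial cells, and its part in the result was not tested.

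The genes below are named for the size of their fall among called genes that were lower in all 4 libraries, so that agreement was required. Tmsb10, thymosin beta 10, which binds actin monomers, was at 95.8, 149, 238 and 150.1 CPM in arterial and 773, 806, 971 and 744 CPM in other endothelial cells (log2 fold change -2.48 ± 0.14, SE; edgeR adjusted p = 3.04e-15). Car4 was at 165, 133, 63.5 and 214 CPM against 811, 751, 1459.9 and 719 CPM (log2 fold change -2.30 ± 0.16, SE; edgeR adjusted p = 2.97e-13). Tfrc was at 473, 237, 222 and 439 CPM against 1253, 868, 1225 and 1049 CPM (log2 fold change -1.53 ± 0.13, SE; edgeR adjusted p = 2.18e-11), and Slc16a1 at 274, 269, 190.4 and 585 CPM against 772, 804, 787 and 1143 CPM (log2 fold change -1.34 ± 0.12, SE; edgeR adjusted p = 3.22e-10). All 4 were lower in every library. Flrt2, a guidance protein known to bind receptors of the Unc5 family, fell by 2.31 on the log2 scale (SE 0.25; edgeR adjusted p = 1.84e-08), and Ndnf, a secreted protein, fell by 1.92 (SE 0.17; 1.30e-10). Rnase4 was at -2.24, Ttyh2 at -1.498, Rflnb at -1.37, Ctla2a at -1.35, the creatine synthesis gene Gatm at -1.31 and the pseudokinase gene Trib2 at -1.28 on that scale, and each passed and was lower in all 4 libraries.

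Genes are grouped below by lists that were drawn up with earlier results of these data known, so their counts describe and do not support. Genes named from a list beyond its 6 most abundant members were chosen after their values were seen. Of 32 genes on the list of arterial genes outside the rule, 24 passed the filter on low counts. Of these 22 were higher, 1 was lower and 1 did not pass, with a median log2 fold change of 1.00 against 0.0016 over all genes, of which 2.75% were higher and 2.25% lower. The other 8 were Gja4, Gja5, Hey2, Fbln5, Cytl1, Tmem100, Cxcr4 and Pi16. Among the 22 higher genes, Fbln2, Eln, Clu and Stmn2 were scarce in other endothelial cells. They met the filter through their arterial sums, so their calls describe and do not support. Tmem100, a membrane protein gene downstream of BMP signalling, had 76 UMIs in all arterial and 19 in all other endothelial cells. Cxcr4, the receptor of the chemokine Cxcl12, had 31 and 34.

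Of the 26 genes on the elastic fibre and matrix list, 14 were tested, 4 were higher and 2 lower, against 2.75% and 2.25% of all genes, with a median of 0.11. Fbln2, fibulin 2, was at 117, 84.3, 47.6 and 33.8 CPM in arterial and 7.17, 3.19, 0 and 4.06 CPM in other endothelial cells (log2 fold change 4.10 ± 0.34, SE; edgeR adjusted p = 2.18e-11). Eln was at 102, 120.0, 31.7 and 26.3 CPM against 17.2, 4.79, 12.7 and 8.12 CPM (log2 fold change 2.96 ± 0.33, SE; edgeR adjusted p = 1.90e-08). Both were higher in arterial cells of every library, and Eln was lower in GlastiKO replicate 2 and the library labelled ECiKO replicate 1 than in the other arterial sums. Fbln2 and Eln met the filter on low counts through their arterial sums, so these 2 of the 4 higher calls describe and do not support. Ltbp4, a binding protein of latent TGF-beta, was at 1036, 856, 730.0 and 904 CPM against 606, 507, 711 and 558 CPM (log2 fold change 0.71 ± 0.11, SE; edgeR adjusted p = 1.39e-05), and the filament gene Vim was higher by 0.65 ± 0.11 (edgeR adjusted p = 4.72e-05). Fbln5 was too sparse for the test. It had 47 UMIs in the arterial and 0 in the other endothelial cells of control replicate 1 (lower 95% exact limit of the ratio 49.1). It had 10 and 1 in GlastiKO replicate 1 (40.6-fold, 95% exact interval 5.78 to 1764), and 16 and 0 in the library labelled ECiKO replicate 1 (lower limit 14.3). The basement membrane genes Nid1 and Lama4 were lower, at log2 fold changes of -1.15 and -0.60 (edgeR adjusted p = 0.000785 and 0.0453). The call of Lama4 was lost on leaving out any of the 4 libraries (adjusted p from 0.053 to 0.334), while Sparcl1, the list's most abundant gene, did not pass (log2 fold change -0.28 ± 0.10, SE; edgeR adjusted p = 0.105).

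In the Notch pathway 2 ligands and 2 receptors were higher. Of 19 genes 13 were tested, and the other 9 did not pass, with a median of -0.053. Over all genes 2.75% were higher and 2.25% lower. Jag2 was at 479, 434, 238 and 432 CPM in arterial and 205, 228, 197 and 226 CPM in other endothelial cells (log2 fold change 1.04 ± 0.13, SE; edgeR adjusted p = 1.40e-07). Jag1, the other jagged ligand, was at 165, 90.8, 15.9 and 135 CPM against 72.2, 64.6, 31.7 and 70.0 CPM (log2 fold change 0.95 ± 0.19, SE; edgeR adjusted p = 0.000708), and GlastiKO replicate 2 went the opposite way. The receptors Notch4 and Notch1 were higher by 0.74 ± 0.18 and 0.51 ± 0.12 (edgeR adjusted p = 0.00931 and 0.00663), each in 3 of 4 libraries. Dll4 was at 138, 220.5, 79.3 and 255 CPM against 110.4, 139, 139.7 and 198 CPM and did not pass (log2 fold change 0.43 ± 0.15, SE; edgeR adjusted p = 0.111). Jag1 was not called without control replicate 1 (edgeR adjusted p = 0.227), nor Notch4 and Notch1 without GlastiKO replicate 1 (0.337 and 0.211), nor Notch1 without the library labelled ECiKO replicate 1 (0.165). Hey2, a relative of Hey1, had 5 UMIs in all arterial cells and 0 in all other endothelial cells.

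The transcription factor genes in this paragraph were chosen after their values were seen, and Sox18, Sox13, Gata2 and Prdm16 are on none of the lists. Sox17, a SOXF factor, was at 647, 483, 286 and 604 CPM in arterial and 359.9, 290.4, 330.1 and 315 CPM in other endothelial cells (log2 fold change 0.80 ± 0.12, SE; edgeR adjusted p = 1.09e-05), higher in 3 of 4 libraries. Sox18, Sox13, Gata2 and Epas1 were higher by 0.65 ± 0.12, 0.93 ± 0.19, 0.72 ± 0.13 and 0.54 ± 0.10 (edgeR adjusted p = 0.000152, 0.00112, 0.000241 and 0.000229). Prdm16 and Mecom, zinc finger proteins of 1 family, were higher by 0.75 ± 0.19 and 0.46 ± 0.13 (0.0095 and 0.0307). Without control replicate 1 the calls of Sox13, Gata2, Prdm16 and Mecom were lost (edgeR adjusted p = 0.17, 0.0813, 0.297 and 0.38), and without GlastiKO replicate 1 those of Prdm16 (0.0554) and Mecom (0.403). Without the library labelled ECiKO replicate 1 the call of Mecom was lost (0.293). Nr2f2 was at 13.4, 6.48, 31.7 and 7.505 CPM against 67.9, 87.8, 69.8 and 60.9 CPM (log2 fold change -2.60 ± 0.34, SE; edgeR adjusted p = 4.75e-07), lower in all 4 libraries.

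Venous genes outside the rule numbered 16, of which 9 were tested and 4 were lower, against 2.25% of all genes, with a median of -0.12. The lower genes included Nr2f2, Tmsb10 and Ctsc, a lysosomal protease gene (-1.18 ± 0.24; edgeR adjusted p = 0.000758). Ctsc was not called without control replicate 1 (edgeR adjusted p = 0.0895). Among the venous genes too sparse for the test, Ackr1, a chemokine-binding receptor of venules, had 0 UMIs in all arterial and 53 in all other endothelial cells, and Lrg1, a secreted glycoprotein gene, had 0 and 45.

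In the TGF-beta and BMP list of 22 genes, 15 were tested and 2 were higher, against 2.75% of all genes, with a median of 0.18. Tgfb2, a ligand, was at 705, 762, 651 and 435 CPM in arterial and 239.9, 262, 375 and 246 CPM in other endothelial cells (log2 fold change 1.33 ± 0.13, SE; edgeR adjusted p = 5.79e-10). Smad6, an inhibitor of BMP signalling, was at 119, 84.3, 47.6 and 75.05 CPM against 41.6, 35.9, 31.7 and 30.4 CPM (log2 fold change 1.40 ± 0.21, SE; edgeR adjusted p = 9.51e-06). Both were higher in every library. Id1, a target of BMP signalling and the list's most abundant gene, did not pass (log2 fold change 0.20 ± 0.10, SE; edgeR adjusted p = 0.365).

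Of the 18 genes on the list of connexins and vasomotor genes 9 were tested and 2 were higher, against 2.75% over all genes, with a median of 0.058. Edn1, which encodes the vasoconstrictor endothelin 1, was at 850.3, 823, 492 and 645 CPM in arterial and 292, 306, 254 and 374 CPM in other endothelial cells (log2 fold change 1.30 ± 0.12, SE; edgeR adjusted p = 6.56e-10), and the classes did not overlap. Kcnj2, an inward rectifier potassium channel of capillary and arteriolar endothelium, was at 86.2, 107, 15.9 and 113 CPM against 38.7, 39.9, 31.7 and 76.1 CPM (log2 fold change 1.04 ± 0.21, SE; edgeR adjusted p = 0.000906), higher in 3 of 4 libraries, but was not called without control or GlastiKO replicate 1 (edgeR adjusted p = 0.0901 and 0.0554). On other lists or none, Edn3, a further endothelin gene, was higher by 1.43 ± 0.18 (4.34e-07) and Pdgfa, a growth factor for cells around vessels, by 2.12 ± 0.33 (1.94e-05). Of 12 flow response genes 10 were tested and 3 were higher, against 2.75% over all genes (median 0.17): Edn1 again, Timp3 (0.68 ± 0.12; 0.000104) and Slc9a3r2 (0.43 ± 0.11; 0.0105). Slc9a3r2 was not called without control replicate 1, GlastiKO replicate 1 or the library labelled ECiKO replicate 1 (0.158, 0.144 and 0.129), and Klf2, the flow-induced transcription factor, did not pass (0.12 ± 0.12; 0.774).

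Guidance and growth factor receptors moved in both directions. Efnb2, the ephrin of arterial endothelium, was at 205, 198, 79.3 and 236 CPM in arterial and 90.8, 49.5, 38.1 and 99.4 CPM in other endothelial cells (log2 fold change 1.45 ± 0.17, SE; edgeR adjusted p = 6.11e-08). With Unc5b it made up the 2 higher genes among 15 tested of 19 on the guidance list, where 3 were lower and the median was -0.061. The background for this list and the VEGF list below is 2.75% higher and 2.25% lower over all genes. Nrp2, a neuropilin of veins and lymphatics, was at 19.2, 9.73, 0 and 11.3 CPM against 108, 64.6, 95.2 and 59.9 CPM (log2 fold change -2.55 ± 0.30, SE; edgeR adjusted p = 1.06e-07). Nrp1, which is usually listed as arterial, was also lower, at 306, 415, 206 and 285 CPM against 609, 539, 444 and 399 CPM (log2 fold change -0.62 ± 0.13, SE; edgeR adjusted p = 0.000904), but was not called without control replicate 1 (edgeR adjusted p = 0.117). The third was Sema6a (-1.25 ± 0.15; 1.36e-07). Kdr, VEGF receptor 2, was at 772, 927, 857 and 979 CPM against 1514, 1434, 1276 and 1256 CPM (log2 fold change -0.59 ± 0.11, SE; edgeR adjusted p = 0.000203), and Kdr, Nrp1 and Nrp2 were the 3 lower genes among 10 tested of 18 on the VEGF and angiopoietin list (median -0.24, none higher).

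All 20 capillary genes were tested, 10 were lower and none higher, against 2.25% and 2.75% of all genes, with a median of -0.46. Beside Car4, Tfrc, Slc16a1 and Kdr these were the amino acid transporters Slc7a1 (-0.82 ± 0.12; edgeR adjusted p = 8.21e-06) and Slc7a5 (-0.72 ± 0.11; 2.11e-05), the organic anion transporter Slc22a8 (-0.92 ± 0.12; 8.90e-07), and Pglyrp1, Rgcc and Ivns1abp (-0.70, -0.53 and -0.54). Of 23 barrier genes 22 were tested, 6 were lower (2.25% of all genes were) and 1 was higher (2.75% of all genes were), with a median of -0.17. A single higher gene is near that background. It was Slc2a1, the glucose transporter GLUT1, at 2379, 3002, 2095 and 2630.3 CPM against 1653, 2163, 2203 and 1803 CPM (log2 fold change 0.47 ± 0.11, SE; edgeR adjusted p = 0.00347), in 3 of 4 libraries. Apcdd1 and Lrp8, both tied to Wnt signalling in barrier endothelium, were lower, at -0.78 and -0.54 on the log2 scale (1.84e-05 and 0.00745). Slco1a4, Cxcl12 and Mfsd2a did not pass (-0.27 ± 0.12, 0.056 ± 0.11 and 0.29 ± 0.11).

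The smaller calls of that group depended on single libraries. Leaving out control replicate 1 ended those of Slc2a1, Lrp8, Ivns1abp and Rgcc (edgeR adjusted p = 0.105, 0.211, 0.0957 and 0.541), and so did leaving out GlastiKO replicate 1 (0.101, 0.277, 0.15 and 0.0546). Without the library labelled ECiKO replicate 1, Slc2a1 and Rgcc were not called (0.109 and 0.0534).

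Of 17 interferon and MHC class I genes 16 were tested, 6 were higher and none lower, with a median of 0.37, against 2.75% higher and 2.25% lower over all genes. The other 10 did not pass, among them the class I gene H2-K1 and the peptide transporter gene Tap1 (0.31 ± 0.11 and 0.25 ± 0.27; edgeR adjusted p = 0.119 and 0.795). Ifitm3, an antiviral membrane protein, was at 1149, 1313, 1952 and 1126 CPM in arterial and 851, 645, 1117 and 695 CPM in other endothelial cells (log2 fold change 0.79 ± 0.11, SE; edgeR adjusted p = 8.90e-07). B2m, the light chain of class I molecules, was higher by 0.53 ± 0.10 (edgeR adjusted p = 0.000285), H2-D1 by 0.48 ± 0.11 (0.00546), H2-Q7 by 1.09 ± 0.30 (0.0209), Ly6c1 by 0.65 ± 0.11 (3.54e-05) and Ly6a by 0.37 ± 0.10 (0.0212). All 6 were higher in each library. Without GlastiKO replicate 1, B2m, H2-D1, H2-Q7 and Ly6a were not called (0.0545, 0.09, 0.61 and 0.329), and Ly6a was not called without control replicate 1 or the library labelled ECiKO replicate 1 (0.158 and 0.115). H2-D1 and H2-Q7 belong to a family of near-identical genes, so their reads may be divided uncertainly.

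Of 20 immediate early genes 18 were tested, with a median of -0.058. Over all genes 2.75% were higher and 2.25% lower, and the single calls on this list and the heat shock list are near that background. Ccn1, a matrix protein, was higher by 0.68 ± 0.16 (edgeR adjusted p = 0.00672) and Ier3 was lower, at -1.24 on the log2 scale (7.53e-06). Of 14 heat shock genes 13 were tested, with a median of -0.17 and 1 lower gene, Hspa1b (-0.62 ± 0.17; 0.0185), which has a near-identical neighbour, Hspa1a. Ccn1 and Hspa1b were not called without control replicate 1 (0.283 and 0.16), and Hspa1b not without GlastiKO replicate 1 (0.648). Jun and Hsp90ab1, the most abundant genes of these lists, were at -0.026 and 0.05 and did not pass.

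Stmn2, Clu and Hbb-bs also belong to marker lists of other cells. Stmn2 and Clu were among the genes that met the filter on low counts through their arterial sums. Stmn2 was at 113, 211, 47.6 and 75.05 CPM in arterial and 9.08, 7.98, 12.7 and 12.2 CPM in other endothelial cells (log2 fold change 3.73 ± 0.28, SE; edgeR adjusted p = 2.17e-12). It made up most of the arterial UMIs of the neuronal list, in which Dcx, Tubb3, Snap25 and Rbfox3 were at 0 in arterial cells of all libraries. Clu was at 34.5, 55.1, 31.7 and 63.8 CPM against 7.17, 2.39, 25.4 and 1.01 CPM (log2 fold change 3.19 ± 0.44, SE; edgeR adjusted p = 2.21e-06), and it is 1 of 9 astroglial markers. Of the others, Gfap had 0 UMIs in all arterial cells, Aqp4 1, Ntsr2 1, S100b 1, Sox9 3, Aldoc 4, Mt3 8 and Slc1a2 30, against 1, 3, 3, 10, 157, 0, 6 and 17 in all other endothelial cells, and their part in the result was not tested. Hbb-bs, a haemoglobin gene, was at 12307, 74.6, 59143 and 52.5 CPM against 82.7, 59.0, 69.8 and 27.4 CPM (log2 fold change 5.69 ± 0.78, SE; edgeR adjusted p = 1.60e-06). Without the 3 cells rich in red blood cell RNA it did not pass, at 0.25 (edgeR adjusted p = 0.722).

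**Figure D4:**
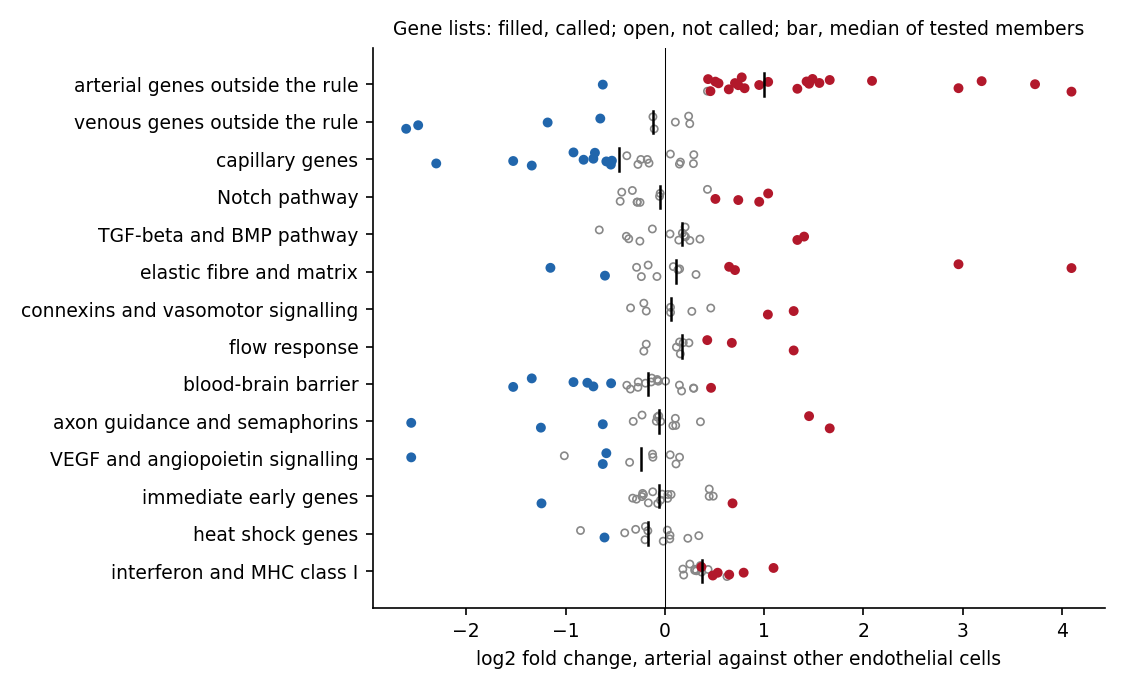
Log2 fold change of arterial against other endothelial cells (horizontal axis) for each tested gene of the 14 gene lists (vertical axis). Filled points passed at an edgeR adjusted p under 0.05, open points did not, and bars are medians of tested members, from 1.00 for arterial genes outside the rule to -0.46 for capillary genes.

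The other endothelial cells were divided into 496 venous or activated cells, with at least 2 UMIs of the 6 venous or activated markers and more than of the arterial ones, and 897 remaining cells. Against the remaining cells 150 of 6195 genes were higher (2.42%) and 114 lower (1.84%), 264 in all (4.26%). Against the venous or activated cells 150 of 5642 were higher (2.66%) and 146 lower (2.59%), 296 in all (5.25%). Both comparisons share the arterial sums, so their values are set side by side, and the difference between them was not tested. Egfl8 was higher by 3.51 ± 0.34 against remaining and 2.81 ± 0.32 against venous or activated cells (edgeR adjusted p = 6.82e-10 and 2.77e-09). Alpl was higher by 1.59 ± 0.18 and 3.02 ± 0.21 (1.43e-08 and 5.77e-16), and Efnb2 by 1.03 ± 0.17 and 2.20 ± 0.20 (8.01e-05 and 3.91e-12). Cd9 was higher by 2.64 ± 0.26 and 0.99 ± 0.22 (9.48e-10 and 0.00133).

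Some genes told the arterial cells from 1 of these classes. Nr2f2 was at -1.43 ± 0.44 against remaining and -3.34 ± 0.33 against venous or activated cells (edgeR adjusted p = 0.0535 and 3.59e-11), and only the second passed. Dll4 was at 0.21 ± 0.16 and 0.73 ± 0.18 (0.674 and 0.00404), again with a pass against venous or activated cells alone. Rgcc was at -0.88 ± 0.16 and 0.061 ± 0.16 (0.000175 and 0.955), and passed against remaining cells alone. Tmsb10 was lower than in both, at -1.88 ± 0.16 and -2.99 ± 0.16 (1.52e-11 and 1.14e-20).

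Gja1 (chromosome 10, 56377330 to 56402513, plus strand, mm10), the gene targeted in this study, was not reduced in arterial cells of the library labelled ECiKO replicate 1. Its arterial UMIs were 55 in control replicate 1 (105 CPM, 95% exact Poisson interval 79.4 to 137), 41 in GlastiKO replicate 1 (133 CPM, 95.4 to 180), 12 in GlastiKO replicate 2 (190.4 CPM, 98.4 to 333) and 98 in the library labelled ECiKO replicate 1 (368 CPM, 299 to 448). Control replicate 2 held 2 UMIs (75.8 CPM) and the library labelled ECiKO replicate 2 held 0, which allows up to 307 CPM. The library labelled ECiKO replicate 1 was thus the highest of the 4 and stood above the interval of control replicate 1 by a ratio of 3.49 (95% exact interval 2.48 to 4.95), opposite to what its label names. In the other endothelial cells the same ratio was 2.14 (1.73 to 2.63). The 3′ reads count transcripts at their end, and where the deleted part of the gene lies is not given in the sources used here, so this level does not check the deletion.

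Within a library, Gja1 was near the level of other endothelial cells except in the library labelled ECiKO replicate 1. The arterial level was 1.18 times that of other endothelial cells in control replicate 1 (95% exact interval 0.856 to 1.60), 0.906 times in GlastiKO replicate 1 (0.629 to 1.28), 1.43 times in GlastiKO replicate 2 (0.641 to 3.04) and 1.93 times in the library labelled ECiKO replicate 1 (1.49 to 2.47). Over the 4 libraries Gja1 did not pass the class test (log2 fold change 0.46 ± 0.16, SE; edgeR adjusted p = 0.113). Along the arterial markers it had no single direction, at 119, 176, 237, 155, 203 and 105 CPM from 0 to 10 or more marker UMIs.

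RNA of connexin 37 and connexin 40 was higher in arterial cells of the libraries with enough counts to tell, in counts too low for the class test. Gja4 had 24, 11, 1 and 10 UMIs in arterial cells of the 4 libraries and 16, 2, 0 and 1 in other endothelial cells. The ratio of levels was 6.01 in control replicate 1 (95% exact interval 3.06 to 12.1), 22.4 in GlastiKO replicate 1 (4.88 to 208) and 37.0 in the library labelled ECiKO replicate 1 (5.26 to 1605). Gja5 had 5 UMIs in arterial and 0 in other endothelial cells of control replicate 1 (lower 95% exact limit of the ratio 3.67), and 7 and 1 in GlastiKO replicate 1. No Gja5 UMI was seen in arterial cells of GlastiKO replicate 2 or the library labelled ECiKO replicate 1, where 0 UMIs allow up to 47.6 and 11.3 CPM. Gjc1, connexin 45, was at 121, 117, 31.7 and 82.6 CPM in arterial and 134, 158, 133 and 116 CPM in other endothelial cells, lower in each library without passing (log2 fold change -0.34 ± 0.18, SE; edgeR adjusted p = 0.377).

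**Figure D5:**
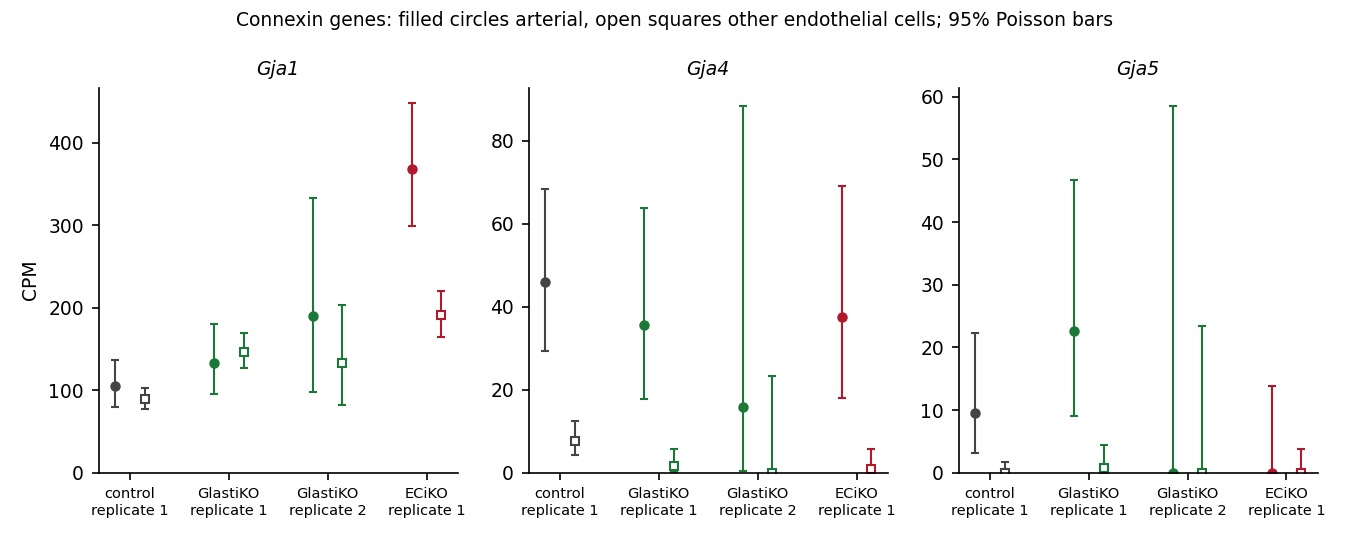
Levels (vertical axes, CPM) of Gja1, Gja4 and Gja5 in the 4 libraries with at least 10 arterial cells (horizontal axes); filled circles are arterial cells, open squares other endothelial cells, bars 95% exact Poisson intervals. Gja1 is highest, at 368 CPM, in arterial cells of the library labelled ECiKO replicate 1. Gja4 lies above the other endothelial cells in all 4, but in GlastiKO replicate 2 by 1 UMI against 0, too few to tell.

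Arterial cells of the GlastiKO and control libraries were compared to see whether the deletion named for Glast went with a change in arterial RNA. With 2 GlastiKO libraries and 1 library each of control and ECiKO, the edgeR fit had 1 residual degree of freedom and assumed that the lone libraries vary like the GlastiKO pair. In that pair, 438 of 497 usable cells were endothelial in replicate 1 but 62 of 1197 in replicate 2. The lone libraries were mostly endothelial, so group and this difference in library make-up cannot be fully told apart. Of 6048 genes 1 passed (0.0165%), while 75 had an unadjusted p under 0.05. It was Slc1a2, a glutamate transporter of astrocytes, at 5.75, 3.24, 413 and 0 CPM (log2 fold change 4.55 ± 0.93, SE; edgeR adjusted p = 0.00647). It was high in GlastiKO replicate 2 alone, from 26 UMIs, the library in which the astroglial list stood at 651 CPM in arterial cells, and its part in the result was not tested. With the other scaling offered by edgeR, with DESeq2, or with the GlastiKO and control libraries alone, Slc1a2 did not pass (edgeR or DESeq2 adjusted p = 1), and it did with no filter on low counts or a minimum of 3 marker UMIs (edgeR adjusted p = 0.0442 and 0.00246).

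None of the genes below passed. Apart from Gja1, they were named by smallest p among genes of at least 50 CPM whose GlastiKO libraries all lay on 1 side of control replicate 1. That separation was thus fixed by the choice. They included immediate early genes. Egr3, an early growth response factor, was at 15.3, 84.3, 127 and 48.8 CPM (log2 fold change 2.62 ± 0.71, SE; edgeR adjusted p = 0.62), so both GlastiKO libraries were above control replicate 1 and the library labelled ECiKO replicate 1 lay between. Egr1 was at 115, 217, 444 and 195 CPM (1.38 ± 0.49), Bhlhe40 at 72.8, 178, 206 and 101 CPM (1.36 ± 0.49), Depp1 at 38.3, 129.7, 127 and 191 CPM (1.74 ± 0.55) and Cpne8 at 30.6, 74.6, 175 and 33.8 CPM (1.72 ± 0.60), all with an edgeR adjusted p of 0.9995. Hspa1b, the heat shock gene, was at 400.3, 201, 63.5 and 330.2 CPM (-1.33 ± 0.45). On the negative side Nbr1, Creb3l2, Ilk and Ski were at -1.58 ± 0.56, -1.51 ± 0.54, -1.39 ± 0.56 and -1.32 ± 0.49, and none passed. Gja1 did not pass either (0.51 ± 0.50; adjusted p = 0.9995). With all 6 libraries 0 of 3961 genes passed in edgeR (0.0%; 33 at an unadjusted p under 0.05), and DESeq2 called 0 (3 unadjusted).

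Between ECiKO and control only 1 library each held at least 10 arterial cells, so levels were compared by ratios with exact intervals, which cover counting error and no difference between animals. Among 1328 genes with at least 100 UMIs over both libraries, 5 had an interval entirely above 1.5-fold (0.377%) and 5 entirely below its inverse (0.377%) in the library labelled ECiKO replicate 1. Beside Gja1 the higher ones were Sgk1, a kinase induced by glucocorticoids, at 2.75-fold (1.93 to 3.93), Ttc3, a ubiquitin ligase gene, at 2.30-fold (1.62 to 3.26), the immediate early gene Fosb at 2.20-fold (1.61 to 3.01) and Slc16a1 at 2.14-fold (1.69 to 2.70). In the other endothelial cells of the same libraries the ratios were 1.01 for Sgk1, 0.953 for Ttc3, 1.38 for Fosb and 1.48 for Slc16a1. Sgk1 was also higher in arterial cells of GlastiKO replicate 1 than of control replicate 1, by 2.23-fold (1.56 to 3.20), so the control library was the low one of the 3.

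Of the 5 lower genes, Cdk19 was at 0.456 times the control level (0.315 to 0.646), against 1.29 times in other endothelial cells (0.933 to 1.78). The other 4 were the haemoglobin genes Hbb-bs, Hba-a2, Hbb-bt and Hba-a1, at 0.00427 to 0.00119 times, whose UMIs in control replicate 1 lay mostly in the 1 cell rich in red blood cell RNA. Without such cells Cdk19 and Alpl were the lower genes, of 1322. Dll4 was higher at 1.85-fold (1.31 to 2.61), and in the other endothelial cells at 1.79-fold (1.47 to 2.18), both short of the rule of 1.5-fold for the whole interval. Fbln5 was at 0.667 times (0.353 to 1.198) in the library labelled ECiKO replicate 1 and at 0.360 times (0.162 to 0.722) in GlastiKO replicate 1.

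An edgeR fit on all 6 libraries, with 7 and 2 cells in the smallest, called no gene higher and 5 lower between ECiKO and control (0.126% of 3961; 25 at an unadjusted p under 0.05). They were the same 4 haemoglobin genes and Eln, at -3.37 ± 0.76 (SE; edgeR adjusted p = 0.00767). Arterial Eln was at 102 CPM in control replicate 1, 796 CPM in the 7 cells of control replicate 2, 120.0 and 31.7 CPM in the GlastiKO libraries, 26.3 CPM in the library labelled ECiKO replicate 1 and 0 in the 2 cells of replicate 2. The value of control replicate 2 came from 21 UMIs, so the size of the difference rested on that library: between the libraries numbered 1 alone the log2 ratio was -1.95. Gja1 was at 1.52 in this fit and did not pass (adjusted p = 0.9999).

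Whether a group effect differed between arterial and other endothelial cells was tested as an interaction with edgeR on 8146 genes in the 4 libraries. Control and ECiKO had 1 library each, so the 1 residual degree of freedom, and with it every p below, came from the GlastiKO pair alone, and DESeq2 called 0 genes in either interaction (7 for GlastiKO and 10 for ECiKO at an unadjusted p under 0.05). For GlastiKO 6 genes passed (0.0737%; 153 at an unadjusted p under 0.05), 5 with a higher effect in arterial cells (0.0614%) and 1 with a lower one (0.0123%). For ECiKO 7 passed (0.0859%; 170 unadjusted), 3 higher (0.0368%) and 4 lower (0.0491%), the latter all haemoglobin genes. Gja1 was not among them, at -0.25 ± 0.44 for GlastiKO and 0.63 ± 0.44 for ECiKO (adjusted p = 1 for both). The leading gene was Igfbp3, which encodes a binding protein of insulin-like growth factors. It was at 126, 243, 159 and 173 CPM in arterial cells and 238, 23.1, 0 and 30.4 CPM in other endothelial cells, so the levels of the other endothelial cells, not of the arterial cells, fell from control to the other libraries. The other endothelial cells of control replicate 1 held 31 cells with at least 2 UMIs of Plvap and Esm1, markers of fenestrated and tip endothelium, against 1 among its arterial cells and at most 2 in the other 3 libraries. Without such cells the Igfbp3 difference was -0.63 for GlastiKO and -3.04 for ECiKO (adjusted p = 1 and 0.114), and neither passed.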

How the data were processed

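The deposited matrices hold UMI counts, not normalized, for every gene in every barcode, made by the authors with 10x 3′ v3.1 chemistry and Cell Ranger on mm10 (version 5.0.0 per the file headers, but 2.1.1, with Seurat 4, per the submitters' processing notes). Groups came from the labels. The 6 libraries held 7433 barcodes and 32285 genes. Cells were filtered and chosen as described above, and doublets were called with Scrublet in scanpy 1.11.5 and kept. The members, gene lists and comparisons were chosen with earlier results of these data known.

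Counts were summed per library and class, in libraries with at least 10 arterial cells, and tested with edgeR 4.0.16 (filterByExpr, TMM, quasi-likelihood F test) in R 4.3.3, with Benjamini-Hochberg adjustment and a threshold of 0.05. The class test had the library as a block and left out the 19 rule genes. Alternatives used DESeq2 1.42.0, other filters, scalings and cell rules, and thinning to 2000 UMIs. Leaving out cells with smooth muscle UMIs, cells rich in red blood cell UMIs, or Plvap and Esm1 cells was chosen after seeing the data. Code was tested on simulated data. Intervals are exact at 95%, and with 0 counts the floor is 3 counts. Named genes were Gja1, up to 12 per direction with a mean of at least 50 CPM that moved alike in all libraries, and the 6 most abundant members of each list; further names were chosen after their values were seen, and 1 gene is not reported here.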

Additional observations from a re-analysis of the deposited data

Results flagged for a closer look

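The effects of GlastiKO and ECiKO were called as different between arterial and other endothelial cells in the genes below, by the edgeR interaction test with Benjamini-Hochberg adjustment. Values are the log2 effect in arterial minus that in other endothelial cells, in 4 libraries. Control and ECiKO had 1 library each, the spread came from the GlastiKO pair alone, and no gene below passed with DESeq2 (adjusted p = 0.194 for Igfbp3 in GlastiKO and 1 for all others), so the ECiKO values describe 2 libraries.

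For GlastiKO, Igfbp3 differed by 4.41 (edgeR adjusted p = 2.98e-19), Plpp3, a lipid phosphatase gene, by 3.87 (4.42e-07), Plpp1, a gene of the same family, by 2.75 (0.00649), Ehd4, of membrane traffic, by 2.07 (0.00129) and Plscr2, a phospholipid scramblase gene, by 1.77 (0.0221). For ECiKO, Igfbp3 differed by 3.34 (1.23e-08), Plpp3 by 4.25 (0.002) and Cd24a, a surface glycoprotein gene, by 6.10 (0.00324). In all 6 of these genes control replicate 1 had the highest level among the other endothelial cells of the 4 libraries. Plpp3 was at 409, 30.3, 25.4 and 13.2 CPM in other endothelial cells and 46.0, 32.4, 143 and 30.0 CPM in arterial cells. Cd24a was at 178, 8.78, 0 and 3.04 CPM against 17.2, 13.0, 0 and 22.5 CPM. Without the cells with at least 2 UMIs of Plvap and Esm1, of which 31 lay in the other endothelial cells of control replicate 1, the GlastiKO differences of Plpp3, Plpp1, Ehd4 and Plscr2 were 1.72, 0.56, 0.56 and 0.0020, and none passed. The ECiKO difference of Plpp3 was then 1.725 and did not pass either.

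The haemoglobin gene Hbb-bt differed by -3.97 for GlastiKO (edgeR adjusted p = 1.6e-08). For ECiKO, Hbb-bs differed by -6.36 (2.24e-27), Hba-a1 by -9.05, Hbb-bt by -8.85 and Hba-a2 by -6.84. Arterial Hbb-bt was at 2752, 13.0, 2396 and 3.75 CPM. Without the 3 cells rich in red blood cell RNA, Hbb-bs was at 0.83, Hba-a2 at 0.67 and Hba-a1 at -1.54 for ECiKO, and none passed.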

How the results depend on the processing

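The count of 311 genes differing between arterial and other endothelial cells was 140 with DESeq2, 168 with cells thinned to 2000 UMIs, 178 with no replicate block, and 152 to 404 on leaving out 1 library (152 without control replicate 1, 169 without GlastiKO replicate 1, 404 without GlastiKO replicate 2). Of the 86 named genes that passed, 66 still passed with DESeq2, 62 of 73 fitted after thinning and 63 with no replicate block, and none of the 86 changed direction except Rgcc (0.061 against venous or activated cells). Among named genes that did not pass, Cxcl12 changed sign with no filter (-0.0058), with 3 marker UMIs (-0.12) and against remaining cells (-0.24). Hsp90ab1 did so with no filter (-0.0059), a minimum of 20 cells or without GlastiKO replicate 2 (-0.061) and against venous or activated cells (-0.012), and reached 0.12 without GlastiKO replicate 1. Jun was at 0.070 with DESeq2, 0.0019 without doublets, 0.011 with no replicate block, and 0.16 and 0.17 without control and GlastiKO replicate 1, against -0.25 without GlastiKO replicate 2. Sema3c was at 0.028 thinned, 0.086 against venous or activated cells and 0.0068 without cells with smooth muscle UMIs. Klf2 was at -0.089 with a minimum of 20 cells or without GlastiKO replicate 2 and -0.071 with all libraries, and at 0.25 without ECiKO replicate 1. With all libraries Ptprb was at -0.14.

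The 1 GlastiKO call was 0 with RLE, DESeq2, the rule without Mgp, no doublets, thinning, all libraries, all libraries with the replicate block, 2 groups alone, no ECiKO replicate 1, or no cells rich in red cell UMIs, and Gja1 there was at -0.27 after thinning. The 10 genes by ratio for ECiKO were 5 after thinning, 5 by test with all libraries and 5 with the replicate block added. After thinning, of 407 genes with enough UMIs, those called were Slc16a1 and the 4 haemoglobin genes. Gja1, Sgk1, Ttc3, Fosb and Cdk19 were not among them. With a minimum of 3 marker UMIs 7 were higher and 4 lower of 812, and Gja1, Sgk1, Ttc3 and Cdk19 were again not called. Between groups, the deviations of same-numbered libraries had correlations of 0.0357, 0.0697 and 0.0801. The libraries numbered 2 held 7, 12 and 2 arterial cells, so these correlations cannot decide whether the replicate numbers pair the samples. The 6 GlastiKO differences between classes were 0 with DESeq2, 1 thinned, 3 with all libraries, 2 with no replicate block and 1 without Plvap and Esm1 cells, where Igfbp3 was at -0.63, and Gja1 was at 0.21 with 3 marker UMIs. The 7 ECiKO differences were 0 with DESeq2, 3 thinned, 3 without cells rich in red cell UMIs (Hbb-bs 0.83, Hba-a2 0.67) and 4 without Plvap and Esm1 cells (Igfbp3 -3.04). With a minimum of 3 marker UMIs the arterial share was 11.4% in control replicate 1, 12.6% in GlastiKO replicate 1 and 9.45% in ECiKO replicate 1; thinned, it was 11.5% in control replicate 1 and 6.52% in GlastiKO replicate 2. The cause of these changes was not tested. The GlastiKO and interaction fits with a minimum of 20 cells, or without a library of their contrast, and the 4-library replicate block for GlastiKO could not be fitted. Genes under the low-count filter, such as Gja4 and Fbln5, are limited by depth.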
